A study of Mus musculus with 24 samples.

Results

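The 6 genes described here encode the mouse angiomotins (Amot, Amotl1 and Amotl2) and the LIM-domain proteins of the Ajuba family that bind LATS kinases (Ajuba, Limd1 and Wtip). They were chosen by name, through their Ensembl identifiers, and are 6 of the 39017 genes counted in each library. All 6 passed the filter on low counts and were among the 14361 genes tested. In the Hippo pathway, the LATS kinases phosphorylate the co-activators YAP and TAZ, which keeps them out of the nucleus and away from their DNA-binding partners, the TEAD factors. Angiomotins sit at cell junctions and on actin filaments, where they bind YAP, TAZ and LATS and restrain YAP and TAZ. Ajuba, LIMD1 and WTIP also sit at junctions, but they hold LATS in check, so the proteins of these families are known to act on the pathway in opposite directions.

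PolyA RNA was measured in NIH 3T3 cells, a line of mouse embryonic fibroblasts, that stably expressed wild-type transcription factors, activated co-activators or the fusion proteins of a vascular cancer, epithelioid hemangioendothelioma. Each of 8 groups had 3 libraries. The lines were pools of retrovirally transduced cells selected with G418, a neomycin analogue, and every inserted protein was expressed from the viral vector. All groups but CAMTA1 and EVsub were collected 48 h after reaching confluence. EV carried the empty vector. TAZ4SA and YAP5SA carried TAZ or YAP with LATS target serines changed to alanine. TAZ-CAMTA1 and YAP-TFE3 carried the fusions, in which the start of TAZ or YAP, with its TEAD-binding part, is joined to the end of the transcription factor CAMTA1 or TFE3. TFE3 carried the full-length transcription factor TFE3. CAMTA1 carried full-length CAMTA1 and was collected before confluence, and EVsub carried the empty vector in cells that the labels call sub-confluent. Library totals ran from 16471181 counts (TAZ4SA replicate 2) to 30132586 counts (CAMTA1 replicate 3), with a median of 22298975.

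Fibroblast markers were abundant: all 9 stood at or above 1 CPM (counts-per-million, scaled between libraries) in each group, with summed levels from 22896 CPM in TAZ4SA to 46233 CPM in YAP-TFE3 and 37895 CPM in EV. The sums were mostly Fn1 and collagens, and single markers went both ways in the serine mutants: Pdgfra stood at 1194 CPM in EV, 500 CPM in TAZ4SA and 222 CPM in YAP5SA, Pdgfrb at 568, 205 and 142 CPM and S100a4 at 891, 223 and 280 CPM, while Thy1 stood at 38.0, 120 and 195 CPM and Vim at 3532, 4386 and 8076 CPM. None of the 5 epithelial markers reached 1 CPM in any group, and Epcam was at 0 in all 24 libraries. Of 5 macrophage markers, 1 to 3 reached 1 CPM, depending on the group. Their summed level was 4.35, 3.44 and 5.0 CPM in the EV libraries, 65.4, 59.4 and 16.4 CPM in TAZ4SA, 26.1, 23.3 and 23.0 CPM in TAZ-CAMTA1, 132, 107 and 83.1 CPM in YAP5SA and 244, 118 and 132 CPM in YAP-TFE3. In TFE3, EVsub and CAMTA1 the mean sums were 6.66, 5.17 and 4.26 CPM. The most abundant macrophage marker was Lyz2 in YAP-TFE3 (mean 160 CPM) and TAZ-CAMTA1 (21.6 CPM), and Cd68 in YAP5SA (66.9 CPM) and TAZ4SA (40.6 CPM), while Adgre1 was at 0 everywhere and the leukocyte marker Ptprc had a mean of at most 0.0928 CPM. Endothelial markers summed to 3.78 CPM in EV, 12.9 CPM in TAZ4SA (Kdr 9.63 CPM), 11.5 CPM in YAP-TFE3 (Vwf 7.88 CPM), 8.63 CPM in YAP5SA (Kdr 6.42 CPM), 6.36 CPM in TFE3, 5.28 CPM in TAZ-CAMTA1, 1.44 CPM in CAMTA1 and 0.877 CPM in EVsub. The skeletal muscle markers summed to at most 6.89 CPM, in TAZ4SA, nearly all from Des (6.46 CPM), with Myod1 at 0 in every library. The summed macrophage markers were thus higher in TAZ4SA, TAZ-CAMTA1, YAP5SA and YAP-TFE3 than in the other groups, but single markers differed. Cd68 was at 2.05 CPM in TAZ-CAMTA1 and 3.08 CPM in YAP-TFE3, beside 3.18 CPM in EV. Csf1r was at 0.398 CPM in TAZ-CAMTA1, beside 0.636 CPM in EV and 40.0 CPM in YAP5SA. Lyz2 stayed under 1 CPM in TAZ4SA (0.939 CPM) and YAP5SA (0.490 CPM). In the 4 groups with higher sums edgeR called 4 or 5 of the 6 members against EV, beside 3 in EVsub. Of all tested genes, 57.5% were called in TAZ4SA, 21.5% in TAZ-CAMTA1, 71.2% in YAP5SA, 15.3% in YAP-TFE3 and 22.1% in EVsub. The part of the macrophage markers in the results was not tested.

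Sequence around the annotated start was looked up for the members because 3 of them, Amotl2, Ajuba and Wtip, moved together in several groups. RefSeq start windows, 250 bases before to 50 bases after each start (build GRCm38.p6), matched 5 of the 6 members; Limd1 was not matched. They were searched on both strands for CATTCC, the core bound by TEAD factors, for TGANTCA, the AP-1 motif, and for CACGTG, the E-box that MiT/TFE factors such as TFE3 can bind. CATTCC was present in the windows of Amotl2 (1 match, 65 bases before the RefSeq start), Ajuba (2 matches, 186 and 164 bases before) and Wtip (4 matches, 245, 134, 100 and 10 bases before), and not in those of Amot or Amotl1. The RefSeq starts used for Amot, Amotl1 and Amotl2 lie inside these genes as GENCODE places them, and the Amotl2 match falls in an annotated exon, so only the Ajuba and Wtip matches lie before the whole gene, and sequence at the outer starts of the angiomotin genes was not searched. The stretches are printed 5′ to 3′ on the strand of the gene with the CATTCC letters, or their reverse complement GGAATG, in capitals. For Amotl2 the 30 bases lie at chr9:102717727-102717756 on the plus strand, for Ajuba the 250 bases lie at chr14:54577662-54577911 on the minus strand, and for Wtip the 250 bases lie at chr7:34133269-34133518 on the minus strand.
Amotl2: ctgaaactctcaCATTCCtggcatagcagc
Ajuba: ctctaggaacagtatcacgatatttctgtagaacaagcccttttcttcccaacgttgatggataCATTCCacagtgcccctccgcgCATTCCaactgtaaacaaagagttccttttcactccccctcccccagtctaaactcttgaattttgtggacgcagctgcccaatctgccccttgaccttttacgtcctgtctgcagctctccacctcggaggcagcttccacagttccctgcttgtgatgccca
Wtip: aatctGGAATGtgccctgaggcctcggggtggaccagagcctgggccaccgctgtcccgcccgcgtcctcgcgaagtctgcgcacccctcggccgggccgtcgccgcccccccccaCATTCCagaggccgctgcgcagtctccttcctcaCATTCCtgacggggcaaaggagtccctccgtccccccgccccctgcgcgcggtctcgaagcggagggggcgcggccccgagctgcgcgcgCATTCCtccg
The plot of motif positions places these matches along each window. At least 1 CATTCC was in 14.7% of all 32851 windows of this length and in 12.5% of the 13005 windows of tested genes, and at least 2 were in 1.36% and 1.07% of them. No member window held TGANTCA, which was in 7.81% of all windows and in 5.29% of those of tested genes. Amot held a single CACGTG 135 bases before its start, a motif found in 7.15% and 9.71% of them. These matches describe letters in a window and say nothing on binding.

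**Figure D1:**
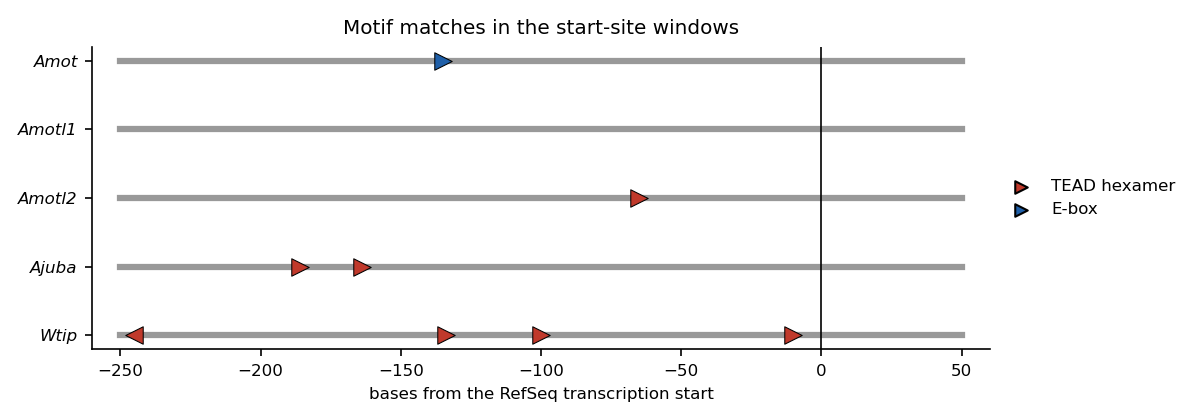
Matches to the TEAD core (red) and to the E-box (blue) in the start windows of the 5 matched members, by position in bases from the RefSeq start; arrows pointing right mark letters on the strand of the gene. Wtip held 4 TEAD core matches, Ajuba 2, Amotl2 1, and Amot and Amotl1 none; the starts of the 3 angiomotins are internal to their genes.

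In build mm10, Amot (ENSMUSG00000041688) lies at chrX:145446425-145505181, Amotl1 (ENSMUSG00000013076) at chr9:14541966-14645056 and Amotl2 (ENSMUSG00000032531) at chr9:102716672-102733418. Ajuba (ENSMUSG00000022178) lies at chr14:54567472-54577558, Limd1 (ENSMUSG00000025239) at chr9:123478706-123521552 and Wtip (ENSMUSG00000036459) at chr7:34109543-34133268. Amotl2 and Limd1 are on the plus strand and the others on the minus strand. Amotl1 alone overlaps other annotated genes (4930584E12Rik and Gm34263), neither of which is counted in the files.

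Levels were compared between genes per length, as CPM per kilobase of merged exons, and within a gene as CPM scaled by the trimmed mean of M values (TMM). In confluent EV cells all 6 members were expressed. Amotl2 (34.6 ± 5.03 CPM per kilobase, SD, n = 3) and Amot (31.9 ± 5.07) stood at the top, followed by Amotl1 (21.1 ± 2.42), Limd1 (15.6 ± 0.681), Wtip (13.9 ± 1.04) and Ajuba (11.9 ± 1.66). Amotl2 and Amot overlapped, as did Wtip and Ajuba, and the other neighbours stood apart. Each angiomotin was therefore present at a higher level per length than each Ajuba family member in these fibroblasts. In YAP5SA cells the order was different: Amotl2 reached 147 ± 13.7 CPM per kilobase, Ajuba 40.4 ± 3.94 and Wtip 28.9 ± 3.02, while Amotl1 (21.1 ± 1.38), Limd1 (13.6 ± 0.302) and Amot (12.8 ± 0.690) came last. Amot thus went from one of the most abundant members in EV to the least abundant in YAP5SA.

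Changes were called at an adjusted p below 0.05 in the quasi-likelihood test of edgeR, corrected over all tested genes by the Benjamini-Hochberg method. In TAZ4SA against EV, 4 of 6 members were called, where 57.5% of all tested genes were. In TAZ-CAMTA1 against EV, 4 of 6 were called (21.5% of all genes), in YAP5SA against EV 5 of 6 (71.2%) and in YAP-TFE3 against EV 4 of 6 (15.3%). In the control comparison of EVsub with EV, 3 of 6 were called (22.1%). By edgeR, none of the 6 passed in TFE3 against EV, where 3.38% of all genes did; 3 members had an unadjusted p under 0.05, and DESeq2 called 0. None passed in CAMTA1 against EVsub by edgeR either, where 2.18% of all genes did; 1 had an unadjusted p under 0.05, and DESeq2 called 0. The shares in TAZ4SA and YAP5SA were close to those of all genes. With YAP-TFE3 the count was 2 with total counts only, 2 without EV replicate 1 or EV replicate 2, and 1 without YAP-TFE3 replicate 1. These comparisons, other than CAMTA1 with EVsub, share the 3 EV libraries, so they are not independent of each other.

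The called members did not move in a single direction. Amotl2 and Ajuba rose and Amot fell with each of the 4 TEAD-binding proteins, and Wtip rose with TAZ4SA, TAZ-CAMTA1 and YAP5SA, the TAZ4SA call for Wtip being lost under both other scalings. Amotl1 rose with YAP-TFE3, and Limd1 fell with YAP5SA. With total counts as the only scaling, the split changed from 3 higher and 1 lower to 2 and 2 in TAZ4SA (Wtip no longer called, Limd1 called lower), and from 3 higher and 2 lower to 3 and 3 in YAP5SA (Amotl1 called lower). With TMM scaling, the median log2 fold change of the 6 members was 0.22 in TAZ4SA, 0.50 in TAZ-CAMTA1, 0.53 in YAP5SA and 0.38 in YAP-TFE3, beside 0.05, -0.00, 0.01 and 0.00 for all genes. In TAZ4SA and YAP5SA the members in the middle were Amotl1 and Wtip, and both stood lower with total counts only. Their values were then -0.09 and 0.14 in TAZ4SA, and -0.37 and 0.68 in YAP5SA. Scaling mattered most for the serine mutants: with total counts only, the median of all genes moved to -0.12 in TAZ4SA against EV and to -0.36 in YAP5SA against EV, and the share of called genes that were higher fell from 54.1% to 41.9% and from 51.0% to 34.5%. In bulk RNA, fewer cells expressing a gene and less of its RNA per cell cannot be told apart.

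**Figure D2:**
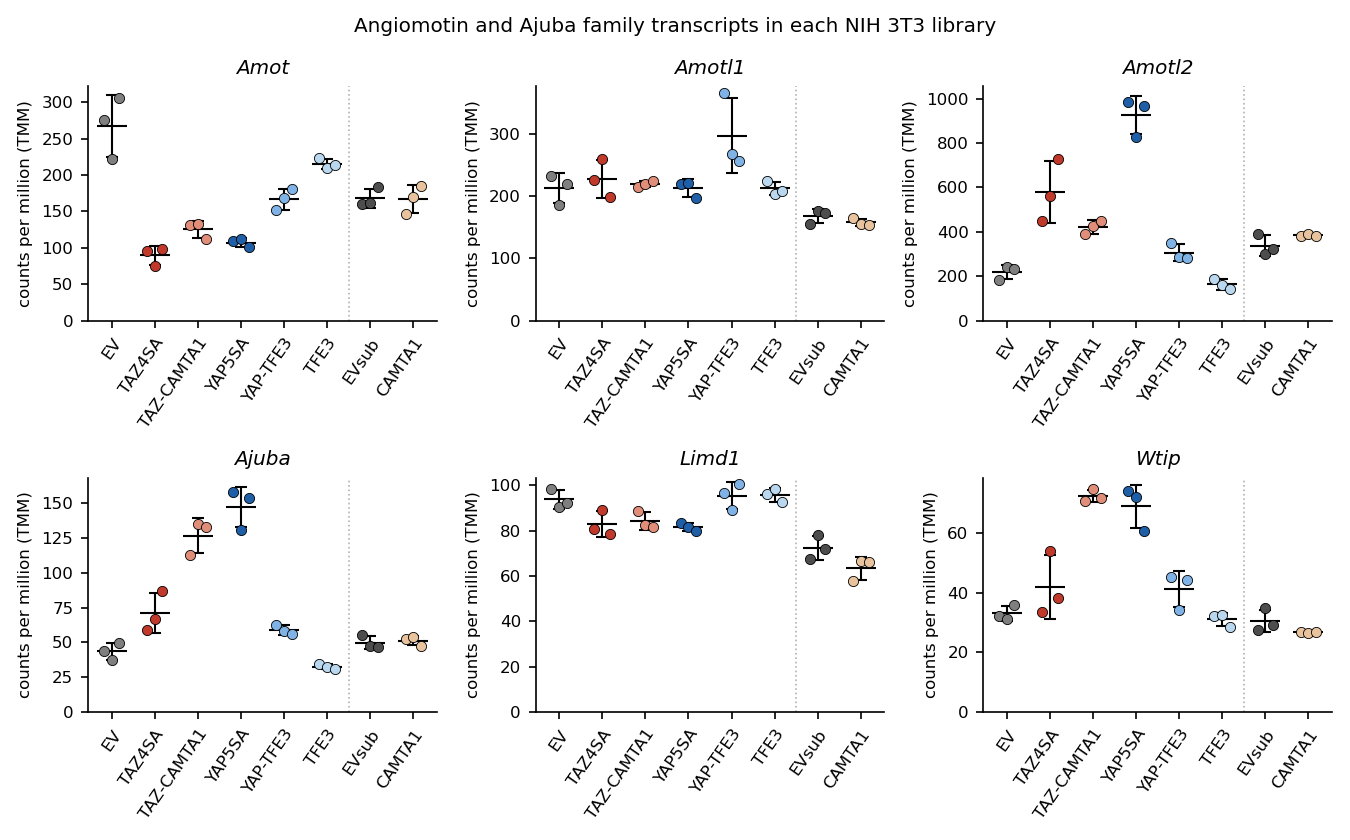
TMM-scaled CPM of the 6 members in each of the 24 libraries (points), with the mean and SD of each group of 3; confluent groups are on the left of each panel, EVsub and CAMTA1 on the right. Amotl2 reached 829 to 986 CPM in YAP5SA against 182 to 240 CPM in EV, and Amot stood at 75.1 to 99.0 CPM in TAZ4SA against 222 to 306 CPM in EV.

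Amot, the founding angiomotin, was highest in confluent empty-vector cells and lower wherever a TEAD-binding protein was expressed. The EV libraries stood at 276, 222 and 306 CPM, the TAZ4SA libraries at 95.4, 75.1 and 99.0 CPM and the YAP5SA libraries at 109, 112 and 101 CPM. The fusions lay between, with 131, 133 and 112 CPM in TAZ-CAMTA1 and 152, 168 and 180 CPM in YAP-TFE3. No library of these 4 groups overlapped the EV range. Amot fell by 1.58 ± 0.13 on the log2 scale (± SE) in TAZ4SA, a level 2.98-fold lower (adjusted p = 1.59e-09 by edgeR), and by 1.32 ± 0.13 in YAP5SA, 2.50-fold lower (adjusted p = 5.55e-09 by edgeR). In the fusions it fell by 1.09 ± 0.12 with TAZ-CAMTA1 (adjusted p = 1.25e-06 by edgeR) and by 0.68 ± 0.12 with YAP-TFE3 (adjusted p = 0.000433 by edgeR). These calls held under all 6 other settings and without any 1 of the 24 libraries.

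The order of mean Amot levels was EV (268 ± 42.6 CPM, SD, n = 3), TFE3 (216 ± 6.98), EVsub (168 ± 13.0), CAMTA1 (168 ± 19.3), YAP-TFE3 (167 ± 14.3), TAZ-CAMTA1 (126 ± 11.8), YAP5SA (107 ± 5.80) and TAZ4SA (89.8 ± 12.9). EV and TFE3 overlapped and stood apart from EVsub, CAMTA1 and YAP-TFE3, which overlapped each other, while the groups below YAP-TFE3 stood apart from their neighbours. Both fusions left more Amot than the matching serine mutant: the level in TAZ-CAMTA1 was 1.40-fold higher than in TAZ4SA (log2 0.48 ± 0.12, adjusted p = 0.00258 by edgeR) and that in YAP-TFE3 was 1.55-fold higher than in YAP5SA (log2 0.64 ± 0.12, adjusted p = 0.000101 by edgeR). With total counts only, the latter difference was 1.00 on the log2 scale.

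Amotl2, an angiomotin that is widely used as a readout of YAP and TAZ activity, showed the widest range of the 6 members, 5.67-fold between its highest and lowest group. Its level was 182, 240 and 231 CPM in the EV libraries and 986, 829 and 967 CPM in YAP5SA. TAZ4SA libraries held 449, 560 and 726 CPM, TAZ-CAMTA1 libraries 388, 428 and 450.0 CPM, and YAP-TFE3 libraries 352, 285 and 282 CPM. All 12 libraries of these groups were above the highest EV library. The gain was 4.26-fold in YAP5SA (log2 2.09 ± 0.16, adjusted p = 2.18e-10 by edgeR), 2.66-fold in TAZ4SA (1.41 ± 0.16, adjusted p = 1.64e-07 by edgeR) and 1.94-fold in TAZ-CAMTA1 (0.95 ± 0.16, adjusted p = 0.000109 by edgeR), and these 3 calls held under every setting tried. With YAP-TFE3 it was 1.41-fold (0.49 ± 0.16, adjusted p = 0.0331 by edgeR), and this call was less secure. It was lost with total counts only (adjusted p = 0.0750 by edgeR) and without EV replicate 1, EV replicate 3 or YAP-TFE3 replicate 1, where edgeR gave an adjusted p of 0.184, 0.0626 and 0.269.

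Mean Amotl2 followed the order YAP5SA (927 ± 85.9 CPM), TAZ4SA (578 ± 139), TAZ-CAMTA1 (422 ± 31.3), CAMTA1 (384 ± 4.53), EVsub (338 ± 46.3), YAP-TFE3 (306 ± 39.3), EV (218 ± 31.6) and TFE3 (164 ± 23.7). YAP5SA stood apart from TAZ4SA, and YAP-TFE3 from EV, whereas all other neighbours overlapped. The Amotl2 levels of sub-confluent empty-vector cells thus overlapped those of confluent YAP-TFE3 cells. Compared directly, YAP-TFE3 had 3.03-fold less Amotl2 than YAP5SA (log2 -1.60 ± 0.16, adjusted p = 1.12e-08 by edgeR).

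Amotl1, the third angiomotin, moved least within its family. Its EV libraries stood at 232, 185 and 220 CPM, and the TAZ4SA, TAZ-CAMTA1, YAP5SA and TFE3 libraries together spanned 197 to 259 CPM. YAP-TFE3 was the exception, at 366, 268 and 256 CPM. All 3 of its libraries exceeded the highest EV library, and its replicate 1 stood well above the other 2. Amotl1 rose 1.40-fold in YAP-TFE3 (log2 0.48 ± 0.12, adjusted p = 0.00834 by edgeR). The call was lost without YAP-TFE3 replicate 1 (log2 0.27, adjusted p = 0.147 by edgeR) or EV replicate 2 (0.39, adjusted p = 0.0515 by edgeR), and when only the 2 compared groups were fitted (adjusted p = 0.0655 by edgeR). In the other 3 groups its log2 difference from EV was 0.10 in TAZ4SA, 0.05 in TAZ-CAMTA1 and 0.00 in YAP5SA, and no call was made. Scaling turned 2 of these: with total counts only, the difference was -0.09 in TAZ4SA and -0.37 in YAP5SA, and the latter passed the test (adjusted p = 0.00268 by edgeR).

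Ordered by mean, Amotl1 was highest in YAP-TFE3 (297 ± 60.2 CPM), then TAZ4SA (228 ± 30.5), TAZ-CAMTA1 (219 ± 4.34), YAP5SA (213 ± 13.9), EV (213 ± 24.3), TFE3 (212 ± 10.2), EVsub (168 ± 11.2) and CAMTA1 (158 ± 5.87). Only TFE3 and EVsub stood apart among neighbours. The sub-confluent groups were therefore the lowest for this gene, whereas their Amotl2 levels were above those of EV.

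Ajuba, a LIM protein of adhesion sites that inhibits LATS, stood at 43.7, 37.4 and 49.5 CPM in EV. It reached 158, 131 and 154 CPM in YAP5SA and 112, 135 and 133 CPM in TAZ-CAMTA1. Lower gains were seen in TAZ4SA (59.1, 67.1 and 86.6 CPM) and YAP-TFE3 (62.6, 58.1 and 56.0 CPM). None of these libraries overlapped EV, so Ajuba was higher in every library that expressed a TEAD-binding protein. The rise was 3.38-fold in YAP5SA (log2 1.76 ± 0.13, adjusted p = 1.34e-10 by edgeR), 2.91-fold in TAZ-CAMTA1 (1.54 ± 0.13, adjusted p = 2.27e-08 by edgeR) and 1.63-fold in TAZ4SA (0.71 ± 0.13, adjusted p = 7.88e-05 by edgeR), and these calls held under every setting tried. The order of YAP5SA and TAZ-CAMTA1 did not hold: the lowest log2 value among the other settings was 1.39 in YAP5SA and 1.52 in TAZ-CAMTA1. In YAP-TFE3 it was 1.35-fold (0.44 ± 0.13, adjusted p = 0.0224 by edgeR). That call was lost with total counts only (adjusted p = 0.0728 by edgeR) and without EV replicate 1, EV replicate 2 or YAP-TFE3 replicate 1, where edgeR gave an adjusted p of 0.0649, 0.112 and 0.160.

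The order of Ajuba levels was YAP5SA (147 ± 14.4 CPM), TAZ-CAMTA1 (127 ± 12.3), TAZ4SA (71.0 ± 14.1), YAP-TFE3 (58.9 ± 3.41), CAMTA1 (51.2 ± 3.11), EVsub (49.8 ± 4.76), EV (43.5 ± 6.06) and TFE3 (32.7 ± 1.88). TAZ-CAMTA1 stood apart from TAZ4SA, YAP-TFE3 from CAMTA1 and EV from TFE3, and the remaining neighbours overlapped. Set directly against its serine mutant, TAZ-CAMTA1 had 1.78-fold more Ajuba than TAZ4SA (log2 0.83 ± 0.13, adjusted p = 1.34e-05 by edgeR).

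Wtip, a relative of Ajuba first found as a partner of the Wilms tumour protein, rose with TAZ-CAMTA1 and YAP5SA. EV libraries stood at 32.1, 31.1 and 35.8 CPM, TAZ-CAMTA1 libraries at 70.6, 74.7 and 71.6 CPM and YAP5SA libraries at 73.9, 71.9 and 60.6 CPM. Neither group overlapped EV. The increase was 2.19-fold in TAZ-CAMTA1 (log2 1.13 ± 0.14, adjusted p = 4.57e-06 by edgeR) and 2.08-fold in YAP5SA (1.06 ± 0.14, adjusted p = 8.69e-07 by edgeR), and both held under every setting, although total counts only brought YAP5SA to 0.68. In YAP-TFE3 (45.1, 34.1 and 44.2 CPM) the log2 difference of 0.32 was not called (adjusted p = 0.150 by edgeR).

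TAZ4SA libraries held 33.6, 54.0 and 38.1 CPM of Wtip, which overlapped EV, with replicate 2 well above the others. The log2 difference of 0.34 ± 0.14 passed narrowly (1.26-fold, adjusted p = 0.0467 by edgeR). It was lost under all 6 other settings (adjusted p 0.0590 to 0.325, edgeR or DESeq2) and without 16 of the 24 libraries. Without TAZ4SA replicate 2 the log2 difference was 0.12 (adjusted p = 0.445 by edgeR). Leaving out EV replicate 1 or 2 gave an adjusted p of 0.109 and 0.128 by edgeR, and YAP-TFE3 replicate 1 gave 0.0868. The other 12 were each CAMTA1, TAZ-CAMTA1 and TFE3 library, YAP5SA replicates 1 and 2 and YAP-TFE3 replicate 3, with the smallest adjusted p at 0.0503 and the largest at 0.0540 by edgeR. For Wtip the order was TAZ-CAMTA1 (72.3 ± 2.13 CPM), YAP5SA (68.8 ± 7.20), TAZ4SA (41.9 ± 10.7), YAP-TFE3 (41.1 ± 6.12), EV (33.0 ± 2.48), TFE3 (31.0 ± 2.20), EVsub (30.5 ± 3.75) and CAMTA1 (26.7 ± 0.242), and only YAP5SA from TAZ4SA and EVsub from CAMTA1 stood apart.

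Limd1, the Ajuba relative with roles at adhesions and in RNA silencing, was the steadiest of the 6, with 1.51-fold between its highest and lowest group. Its EV libraries stood at 98.4, 90.6 and 92.3 CPM and its YAP5SA libraries at 83.5, 81.6 and 79.9 CPM, without overlap. It was 1.15-fold lower in YAP5SA (log2 -0.20 ± 0.08, adjusted p = 0.0410 by edgeR), a narrow call. Among the settings that ended the call were no filter on low counts (adjusted p = 0.179 by edgeR) and leaving out EV replicate 1 (0.141), EV replicate 3 (0.0634) or YAP5SA replicate 1, 2 or 3 (0.0556, 0.0744 and 0.104), while total counts only gave -0.57. In TAZ4SA (80.9, 89.1 and 78.5 CPM) all libraries also lay under EV, with a log2 difference of -0.18 that was not called (adjusted p = 0.0754 by edgeR). It passed with DESeq2 size factors (-0.21, adjusted p = 0.0362 by edgeR), with total counts only (-0.37, adjusted p = 0.000551 by edgeR) and in DESeq2 itself (-0.21, adjusted p = 0.0178), and without TAZ4SA replicate 2 or YAP-TFE3 replicate 1 (adjusted p = 0.0303 and 0.0234 by edgeR). By mean level the order was TFE3 (95.6 ± 2.95 CPM), YAP-TFE3 (95.4 ± 5.76), EV (93.7 ± 4.10), TAZ-CAMTA1 (84.1 ± 3.91), TAZ4SA (82.8 ± 5.59), YAP5SA (81.7 ± 1.82), EVsub (72.5 ± 5.31) and CAMTA1 (63.4 ± 4.97). EV stood apart from TAZ-CAMTA1, YAP5SA from EVsub and EVsub from CAMTA1, and the other neighbours overlapped.

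**Figure D3:**
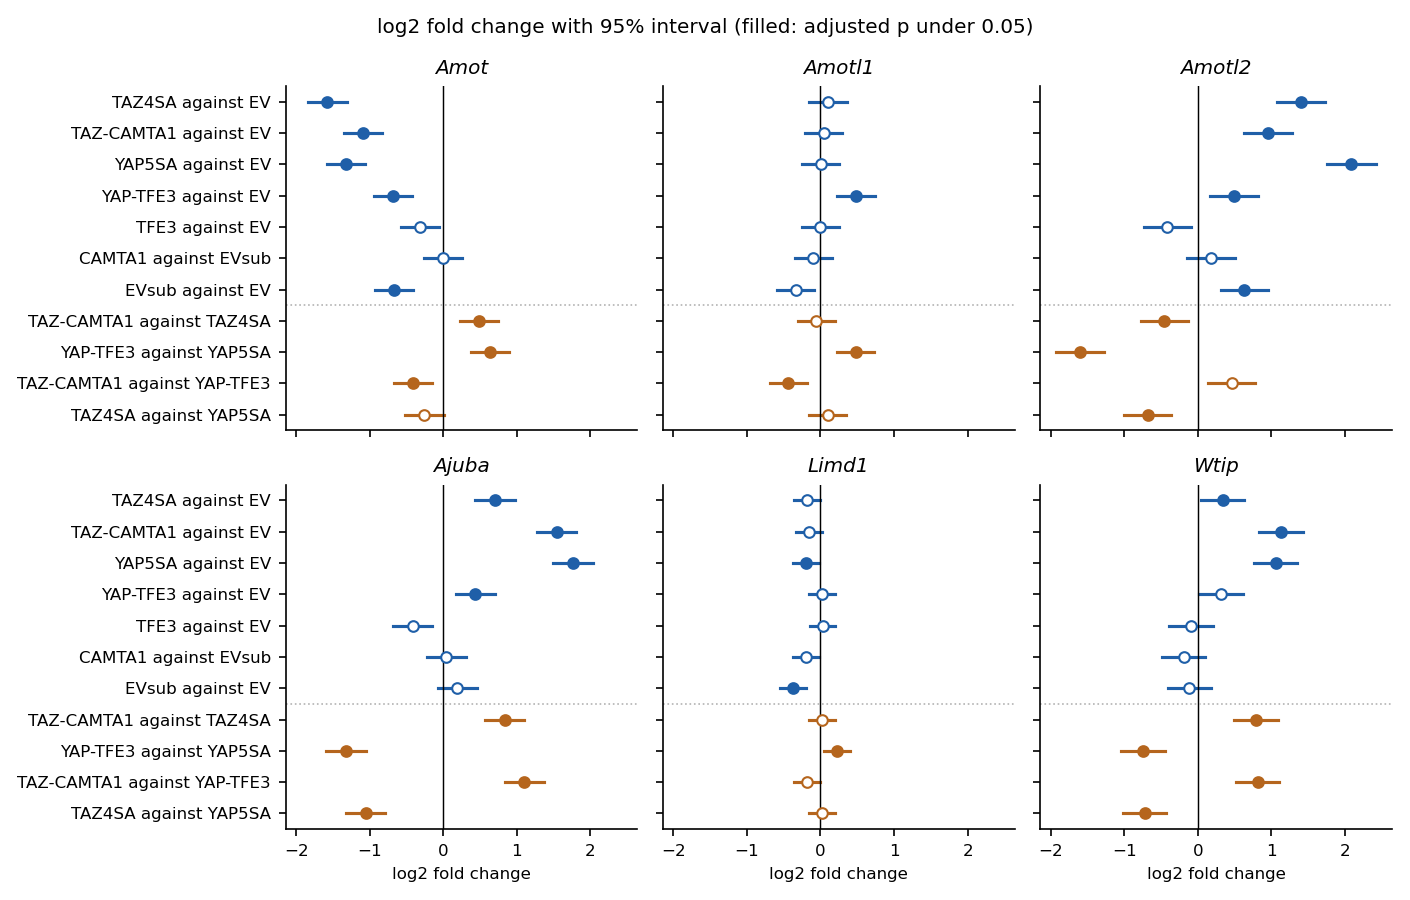
Log2 fold change of each member in the 11 comparisons, with the 95% interval from edgeR; filled points passed at an adjusted p below 0.05. Amotl2 spans 2.09 (YAP5SA against EV) to -1.60 (YAP-TFE3 against YAP5SA), and the Limd1 values are the smallest in range, from -0.37 (EVsub against EV, filled) to 0.22 (YAP-TFE3 against YAP5SA, filled).

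The direct comparisons between expressed proteins separated the members further. TAZ-CAMTA1 differed from TAZ4SA in 4 of 6 members, where 54.7% of all genes differed: Amot, Ajuba and Wtip were higher with the fusion, and Amotl2 was lower. For Wtip the difference was 1.73-fold (log2 0.79 ± 0.14, adjusted p = 8.07e-05 by edgeR), so the fusion gave more Ajuba and Wtip, but not more Amotl2, than TAZ4SA. Amotl2 was 1.37-fold lower in TAZ-CAMTA1 (log2 -0.46 ± 0.15, adjusted p = 0.0168 by edgeR), although the libraries of the groups overlapped. That call was lost with total counts only (-0.30, adjusted p = 0.156 by edgeR), with only the 2 groups fitted (adjusted p = 0.104 by edgeR), without TAZ4SA replicate 3 (-0.26, adjusted p = 0.138 by edgeR) and without TAZ-CAMTA1 replicate 1 (adjusted p = 0.0668 by edgeR). Amotl1 (-0.06) and Limd1 (0.02) did not pass, although with total counts only Amotl1 turned to 0.13 and Limd1 passed at 0.20 (adjusted p = 0.0392 by edgeR). Total counts only moved the median of all genes to 0.17 here and raised the share of called genes that were higher from 48.5% to 62.0%.

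YAP-TFE3 differed from YAP5SA in all 6 members, where 70.9% of all genes differed. Amotl2, Ajuba and Wtip were lower with the fusion, and Amot, Amotl1 and Limd1 were higher, so each member stood closer to its EV level in YAP-TFE3 than in YAP5SA except Amotl1. Ajuba was 2.50-fold lower (log2 -1.32 ± 0.13, adjusted p = 8.96e-09 by edgeR) and Wtip 1.67-fold lower (-0.74 ± 0.14, adjusted p = 7.22e-05 by edgeR), while Amotl1 was 1.39-fold higher (0.48 ± 0.12, adjusted p = 0.00141 by edgeR). Limd1 was 1.17-fold higher (0.22 ± 0.08, adjusted p = 0.0223 by edgeR), a call lost with no filter (adjusted p = 0.107 by edgeR) and without YAP5SA replicate 3 (0.0656) or YAP-TFE3 replicate 3 (0.0916). With total counts only, the median of all genes moved to 0.41 and the share of called genes that were higher rose from 51.4% to 67.6%. The 3 higher and 3 lower members kept their directions, at 0.84 for Amotl1, 0.58 for Limd1 and -0.38 for Wtip.

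The fusions were also set against each other. TAZ-CAMTA1 differed from YAP-TFE3 in 4 of 6 members, where 11.6% of all genes differed. The LIM genes Ajuba and Wtip were higher with TAZ-CAMTA1, 2.15-fold (log2 1.10 ± 0.13, adjusted p = 4.66e-06 by edgeR) and 1.76-fold (0.81 ± 0.14, adjusted p = 0.000447 by edgeR), and both held under every setting. The angiomotins Amot and Amotl1 were lower, 1.33-fold (log2 -0.41 ± 0.12, adjusted p = 0.0333 by edgeR) and 1.35-fold (-0.44 ± 0.12, adjusted p = 0.0222 by edgeR). The Amot call was lost with total counts only (adjusted p = 0.0788 by edgeR) and without TAZ-CAMTA1 replicate 2 or 3 (0.0655 and 0.168) or YAP-TFE3 replicate 2 or 3 (0.0817 and 0.129). The Amotl1 call was lost without any 1 of the TAZ-CAMTA1 libraries (adjusted p = 0.0602, 0.0794 and 0.0615 by edgeR) or YAP-TFE3 replicate 1 (log2 -0.26, adjusted p = 0.162 by edgeR). Amotl2 was higher with TAZ-CAMTA1 in all libraries, at a log2 difference of 0.46 that was not called (adjusted p = 0.0560 by edgeR). It passed with no filter (adjusted p = 0.0311 by edgeR), with only the 2 groups fitted (0.0213), in DESeq2 (0.0372), and without EVsub replicate 2 (0.0492) or TAZ4SA replicate 1, 2 or 3 (0.0348, 0.0497 and 0.0216).

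Between the serine mutants, TAZ4SA had less of the 3 induced members than YAP5SA. Amotl2 was 1.60-fold lower (log2 -0.68 ± 0.16, adjusted p = 0.00144 by edgeR), Ajuba 2.07-fold lower (-1.05 ± 0.13, adjusted p = 2.64e-06 by edgeR) and Wtip 1.65-fold lower (-0.72 ± 0.14, adjusted p = 0.000391 by edgeR). These 3 of 6 members were called, where 42.4% of all genes were, and none was called higher. All 3 calls held under every setting, while total counts only, which moved the median of all genes to 0.25 and the share of called genes that were higher from 53.8% to 72.6%, added Amotl1 (0.28, adjusted p = 0.0306 by edgeR) and Limd1 (0.21, adjusted p = 0.0397 by edgeR) as higher. With TMM scaling, Amot was lower in every TAZ4SA library than in every YAP5SA library, at a log2 difference of -0.25 that was not called (adjusted p = 0.106 by edgeR). Under the other settings this difference ran from -0.27 to -0.04.

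Sub-confluent and confluent empty-vector cells differed in 3 of 6 members, where 22.1% of all genes differed. Sub-confluent EVsub libraries held 391, 302 and 323 CPM of Amotl2, 160, 161 and 183 CPM of Amot and 67.5, 78.0 and 71.9 CPM of Limd1, none overlapping EV. Amotl2 rose 1.55-fold (log2 0.64 ± 0.16, adjusted p = 0.00526 by edgeR), Amot fell by 0.67 ± 0.12 on the log2 scale (adjusted p = 0.000558 by edgeR) and Limd1 fell by 0.37 ± 0.08 (adjusted p = 0.00325 by edgeR). The directions for Amot and Amotl2 were those seen with the TEAD-binding proteins, but Ajuba (log2 0.19, adjusted p = 0.311 by edgeR) and Wtip (-0.12, adjusted p = 0.616 by edgeR) were not called. Amotl1 (156, 176 and 173 CPM) lay under EV in all 3 libraries, with a log2 difference of -0.34 that just missed the call (adjusted p = 0.0521 by edgeR). It passed with DESeq2 size factors (0.0384 by edgeR), total counts only (0.0222 by edgeR) and DESeq2 (0.0232), and without EV replicate 2 (0.0249 by edgeR), TAZ4SA replicate 2 or 3 (0.0337 and 0.0323), or YAP-TFE3 replicate 1 or 3 (0.0109 and 0.0455).

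The full-length transcription factors brought none of the 6 members past the edgeR test, with 3 (TFE3) and 1 (CAMTA1) at an unadjusted p under 0.05 and 0 by DESeq2 in both. Only 3.38% of all tested genes passed in TFE3 against EV and 2.18% in CAMTA1 against EVsub, so 0 of 6 is near these shares. With TFE3, Ajuba libraries held 34.6, 32.7 and 30.8 CPM, all under EV, with a log2 difference of -0.41 ± 0.13 that did not pass (adjusted p = 0.0879 by edgeR). It passed when only TFE3 and EV were fitted (adjusted p = 0.0400 by edgeR) and without TAZ4SA replicate 3 (adjusted p = 0.0282 by edgeR). Amotl2 (189, 160 and 142 CPM) and Amot (223, 209 and 214 CPM) overlapped EV, with log2 differences of -0.41 and -0.31 (adjusted p = 0.182 and 0.209 by edgeR). Against EVsub, full-length CAMTA1 gave log2 differences between -0.19 (Limd1) and 0.18 (Amotl2), with the lowest adjusted p at 0.234 by edgeR, for Limd1. The CAMTA1 libraries held 57.7, 66.4 and 66.1 CPM of Limd1, all under EVsub. TFE3 and YAP-TFE3, and CAMTA1 and TAZ-CAMTA1, were not compared directly here.

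The make-up of the angiomotin family differed between the groups. Per length, Amot, Amotl1 and Amotl2 made up 36.3 ± 3.88%, 24.1 ± 2.72% and 39.6 ± 6.03% of angiomotin RNA in EV (SD, n = 3). In YAP5SA the shares were 7.07 ± 0.783%, 11.7 ± 1.34% and 81.2 ± 2.12%, and in TAZ4SA they were 8.67 ± 1.86%, 18.5 ± 4.44% and 72.8 ± 5.41%. Amotl2 thus held its largest mean shares in the serine mutants. It was also the majority in TAZ-CAMTA1 (64.6 ± 2.15%), CAMTA1 (63.2 ± 1.14%) and EVsub (59.2 ± 4.36%), so its majority was not particular to the mutants. Its share was 49.6 ± 0.945% in YAP-TFE3 and 35.6 ± 2.70% in TFE3. Shares within a library do not depend on scaling, but summed levels do. The summed level was 87.6 ± 6.48 CPM per kilobase in EV, 181 ± 12.8 in YAP5SA, 125 ± 20.9 in TAZ4SA, 104 ± 4.48 in TAZ-CAMTA1, 98.0 ± 10.7 in YAP-TFE3, 96.6 ± 1.98 in CAMTA1, 90.6 ± 5.92 in EVsub and 72.8 ± 5.30 in TFE3.

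The leading member of the Ajuba family also differed between the groups. Limd1, Wtip and Ajuba made up 37.7 ± 2.47%, 33.5 ± 1.09% and 28.8 ± 2.09% of the family per length in EV. In YAP5SA, Ajuba made up 48.7 ± 3.53% and Limd1 16.4 ± 0.635%, and in TAZ-CAMTA1 Ajuba made up 43.9 ± 2.47% and Limd1 17.7 ± 1.60%. The share of Wtip was 34.9 ± 3.24% and 38.4 ± 0.916% in these groups. Ajuba also had the largest share in all 3 CAMTA1 libraries (39.2 ± 1.96%, with Wtip at 31.3 ± 1.07% and Limd1 at 29.4 ± 1.98%), so its lead was not particular to YAP5SA and TAZ-CAMTA1. In TAZ4SA (Ajuba 38.3 ± 6.13%, Wtip 34.4 ± 5.44%, Limd1 27.3 ± 3.08%) and EVsub (35.5 ± 4.07%, 33.2 ± 2.76% and 31.3 ± 1.49%) Ajuba led by mean, but Wtip exceeded it in replicate 2 of both groups. In YAP-TFE3 the 3 shares were close, with Wtip at 34.9 ± 2.74%, and in TFE3 Limd1 led (42.0 ± 0.960%). The family summed to 41.4 ± 2.81 CPM per kilobase in EV, 82.9 ± 4.58 in YAP5SA, 79.0 ± 3.49 in TAZ-CAMTA1, 50.8 ± 6.28 in TAZ4SA, 49.3 ± 3.74 in YAP-TFE3, 38.5 ± 1.78 in EVsub, 37.9 ± 1.81 in TFE3 and 35.8 ± 0.912 in CAMTA1. With TMM scaling, TAZ-CAMTA1 therefore came close to YAP5SA for the LATS-binding LIM genes, whereas its summed angiomotin level was far under that of YAP5SA. The sums, unlike the shares, depend on scaling. The TMM factors were 0.77 to 0.83 in YAP5SA and 1.03 to 1.05 in TAZ-CAMTA1, so total counts only lowers the YAP5SA sums beside those of TAZ-CAMTA1.

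**Figure D4:**
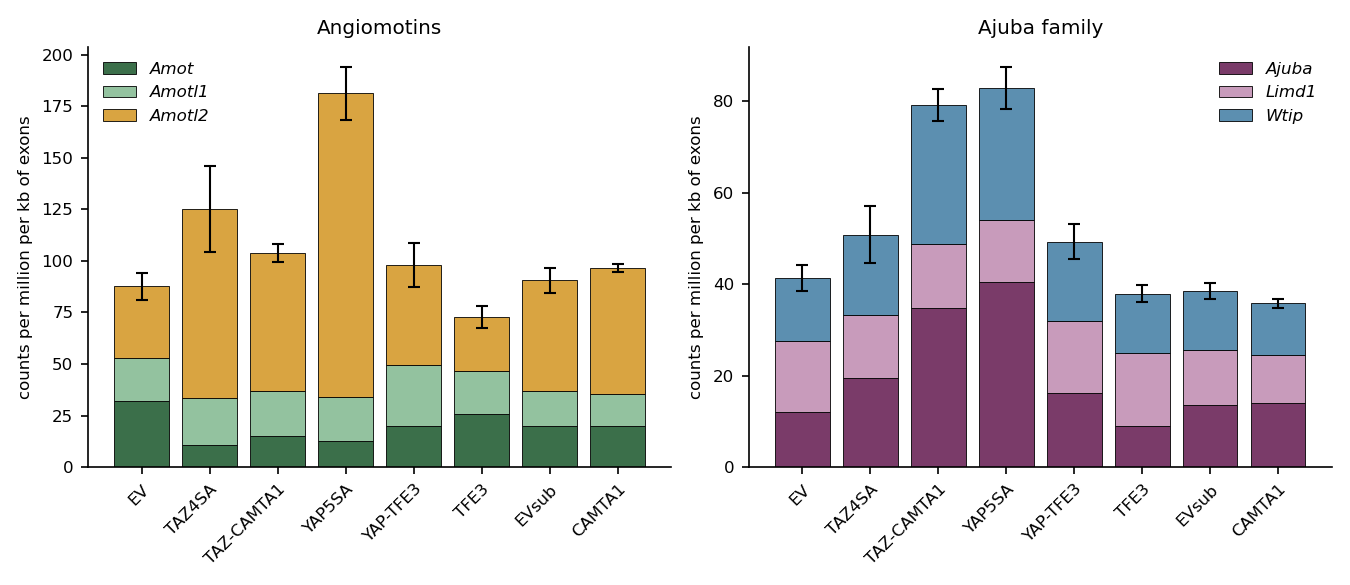
Stacked mean level per length (CPM per kilobase of merged exons) of the angiomotins and of the Ajuba family in the 8 groups, with bars for the SD of the sum over 3 libraries. Amotl2 accounts for 81.2% of angiomotin RNA in YAP5SA and 39.6% in EV, and the Ajuba family sum is 79.0 in TAZ-CAMTA1 and 82.9 in YAP5SA against 41.4 in EV.

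Across the 24 libraries, Pearson correlations of log2 CPM described how the members moved with each other; the libraries of a group share their construct, so they are not 24 independent points. Ajuba followed Wtip (r = 0.878) and Amotl2 (r = 0.850), and Amot ran opposite to Amotl2 (r = -0.831) and Ajuba (r = -0.707). Amotl1 and Limd1, both lowest in the sub-confluent groups, had r = 0.747. The genes with the most similar pattern were then listed for each member, among the 11357 genes that averaged 50 counts or more. For Amotl2 they were Ccdc9b (r = 0.974), 9130008F23Rik (0.973) and Gprc5a (0.971), a retinoic acid-induced receptor that stood at 4.77 CPM in EV and 148 CPM in YAP5SA. For Ajuba they were Rassf7 (0.971), Bicd2, a dynein adaptor (0.946), and Tspan9, a tetraspanin (0.945), with Rassf7 at 3.38 CPM in EV, 32.7 CPM in TAZ-CAMTA1 and 62.4 CPM in YAP5SA. Wtip was most like Cdc42ep5, a Cdc42 effector (0.921), Nectin2, a junctional adhesion molecule (0.920), and Tdrp (0.919). Amot was most like Itsn1, an endocytic scaffold (0.938), and was also close to Snn (0.923). Amotl1 was nearest to Pip5k1a, a lipid kinase (0.908), Ttc7b (0.893) and Lpin3 (0.880), and Limd1 to Tmem127 (0.937), Btbd9 (0.935) and Fbxo41 (0.935).

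The 6 members belong to a larger pathway, and 27 other Hippo genes were followed: kinases, adaptors, upstream proteins, co-activators, TEAD factors and their competitors, the VGLL proteins. Against EV, edgeR called 19 of these 27 in TAZ4SA (13 rose, 6 fell), 10 in TAZ-CAMTA1 (8 rose, 2 fell), 22 in YAP5SA (14 rose, 8 fell) and 8 in YAP-TFE3 (7 rose, 1 fell), where 57.5%, 21.5%, 71.2% and 15.3% of all tested genes were called. Under total counts only, 15, 9, 18 and 7 of these calls were kept; of the rest, Map4k4 turned direction in YAP5SA. With only the 2 groups fitted the count in TAZ4SA was 12. Without EV replicate 3 the count in YAP-TFE3 was 5, and without YAP-TFE3 replicate 1 it was 3. With TMM scaling the median log2 fold change of the list was 0.31 in TAZ4SA, 0.14 in TAZ-CAMTA1, 0.34 in YAP5SA and 0.08 in YAP-TFE3. The YAP5SA median is the value of Map4k4, which total counts only brought to -0.03. Lats2, a LATS kinase, rose in all 4 groups, by 0.95, 1.17, 1.41 and 0.66 on the log2 scale, in that order (adjusted p = 4.76e-06, 1.83e-06, 8.45e-09 and 0.00156 by edgeR). Wwc2, which activates LATS, rose in all 4 as well (0.61, 0.83, 0.98 and 0.56), and its relative Wwc1 rose in TAZ4SA, TAZ-CAMTA1 and YAP5SA (2.34, 1.48 and 2.45). These calls held under every setting and without any 1 library.

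Several core genes fell with the serine mutants. The kinase Stk3 fell by 1.17 in TAZ4SA and 1.45 in YAP5SA on the log2 scale, its adaptor Sav1 by 0.61 and 1.27, the LATS adaptor Mob1b by 0.78 and 1.81, and Yap1 itself by 0.69 and 0.86. Lats1 fell by 1.28 in YAP5SA, the reverse of Lats2 there. Stk4, the paralogue of Stk3, went the other way and rose by 0.76 in TAZ4SA and 1.09 in YAP5SA (adjusted p = 1.14e-07 and 1.88e-10 by edgeR). These calls also held under every setting tried. In TFE3 against EV edgeR called 2 of the 27 (Taok3 higher, Frmd6 lower; 3.38% of all genes), but 0 without EV replicate 2, TFE3 replicate 2 or TFE3 replicate 3, 1 with no filter or without EV replicate 3 or TFE3 replicate 1, and 4 with only the 2 groups fitted. In CAMTA1 against EVsub edgeR called 1 of the 27 (Wwc2 higher; 2.18% of all genes; 7 at an unadjusted p under 0.05, DESeq2 3), a call lost, among other settings, with total counts only, with only the 2 groups fitted, and without CAMTA1 replicate 1 or 2, EVsub replicate 2 or 3, or TFE3 replicate 1 or 2, where the adjusted p by edgeR was at most 0.231; with no filter the count was 4. In EVsub against EV edgeR called 5 of 27 (Wwc1 higher; Sav1, Vgll4, Yap1 and Wwtr1 lower), near the 22.1% of all genes. Of these, total counts only kept the 4 lower ones, and 1 was called with only the 2 groups fitted or without EVsub replicate 1, 2 without EV replicate 1 or EV replicate 3, 3 without EVsub replicate 2 and 8 without TAZ4SA replicate 3.

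A second list held 25 genes tied to the members: 11 binding partners of angiomotins, 8 enzymes known to modify angiomotins or their relatives, 4 relatives of the LIM proteins and the junction proteins Ctnna1 and Vcl. Of these, edgeR called 14 in TAZ4SA (8 rose, 6 fell), 9 in TAZ-CAMTA1 (8 rose, 1 fell), 17 in YAP5SA (10 rose, 7 fell) and 8 in YAP-TFE3 (8 rose), with 12, 8, 15 and 7 kept under total counts only and Arhgap17 and Cdc42 turned in YAP5SA. The counts in TAZ4SA and YAP5SA are no higher a share than that of all genes (57.5% and 71.2%), whereas 21.5% and 15.3% of all genes were called with the fusions. Total counts only moved the median of all genes in YAP5SA to -0.36, so list medians depend on scaling. With TMM scaling they were 0.12 in TAZ4SA, 0.20 in TAZ-CAMTA1, 0.25 in YAP5SA and 0.12 in YAP-TFE3 on the log2 scale. Tjp1, which encodes the tight-junction scaffold ZO-1, rose by 1.23, 1.15, 1.24 and 0.97 in these groups. Magi1, a scaffold that binds angiomotins, rose with the fusions (1.05 in TAZ-CAMTA1 and 0.56 in YAP-TFE3) but fell by 0.87 in YAP5SA, and was higher with each fusion than with its serine mutant, by 1.26 and 1.42 on the log2 scale (adjusted p = 3.68e-08 and 1.61e-09 by edgeR). The calls given for these 2 genes held under every setting.

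Of the 4 LIM relatives, Zyx and Fblim1 set the serine mutants apart from the fusions, Trip6 did so less clearly for the TAZ pair, and Lpp was called in none of the 4 groups. Zyx, which encodes the focal adhesion protein zyxin, rose by 1.20 in both TAZ4SA and YAP5SA on the log2 scale, Fblim1 rose by 1.80 and 1.72 and Trip6, another LIM protein reported to bind LATS, by 1.01 and 1.88. In TAZ-CAMTA1 the values were 0.07 for Zyx and -0.06 for Fblim1, and in YAP-TFE3 -0.29, -0.03 and, for Trip6, 0.12, none of them called. Trip6 rose by 0.50 in TAZ-CAMTA1 (adjusted p = 0.0263 by edgeR), a call lost without EV replicate 1 or 2 or TAZ-CAMTA1 replicate 2 or 3 (adjusted p = 0.0637, 0.0903, 0.138 and 0.0551 by edgeR). In the direct tests Zyx was lower in TAZ-CAMTA1 than in TAZ4SA by a log2 difference of -1.13 and in YAP-TFE3 than in YAP5SA by -1.48 (adjusted p = 5.53e-07 and 3.42e-09 by edgeR), and Fblim1 by -1.85 and -1.75 (adjusted p = 1.17e-08 and 4.39e-09 by edgeR). For Trip6 they were -0.51 and -1.76 (adjusted p = 0.00962 and 3.78e-09 by edgeR), the first with overlapping libraries and lost with only the 2 groups fitted (adjusted p = 0.106 by edgeR) or without TAZ4SA replicate 2 (0.136). Lpp was called in neither test. Ajuba and Wtip, by contrast, were higher in TAZ-CAMTA1 than in TAZ4SA, while Limd1 was not called there. In the YAP pair Ajuba and Wtip were lower with the fusion, as Zyx, Fblim1 and Trip6 were.

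Among the modifying enzymes, the ubiquitin ligases Nedd4 and Rnf146 fell with both serine mutants, by 0.73 and 0.48 in TAZ4SA and by 0.88 and 0.72 in YAP5SA on the log2 scale. Of the Nedd4 relatives, Nedd4l (1.08) and Wwp2 (1.49) rose in YAP5SA and Itch fell by 0.61. In TAZ-CAMTA1, where 21.5% of all genes were called, edgeR called 0 of the 8 enzymes (2 had an unadjusted p under 0.05, and DESeq2 called 1). In YAP-TFE3, where 15.3% of all genes were called, it called 0 (0 at an unadjusted p under 0.05, and 0 by DESeq2). With only 8 genes, these counts are not far from the shares of all genes. For the whole second list, TFE3 against EV gave 0 of 25 by edgeR (3.38% of all genes), with 2 at an unadjusted p under 0.05 and 0 by DESeq2, but 4 with only the 2 groups fitted and 1 without TAZ4SA replicate 3. CAMTA1 against EVsub gave 3 by edgeR (2.18% of all genes; Lpp, Fblim1 and Vcl higher, with Lpp lost under total counts only), but 0 with only the 2 groups fitted or without CAMTA1 replicate 1 or EVsub replicate 2, 1 without CAMTA1 replicate 2 or EVsub replicate 3, and 5 with no filter or without EVsub replicate 1 or TAZ4SA replicate 3. CAMTA1 replicate 3, when left out, also ended the call of Lpp. EVsub against EV gave 3 of 25, a lower share than the 22.1% of all genes, and 5 in DESeq2 or without TAZ4SA replicate 3. Among the 3, Magi3 was higher and Sdcbp lower, and these calls held under every setting.

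**Figure D5:**
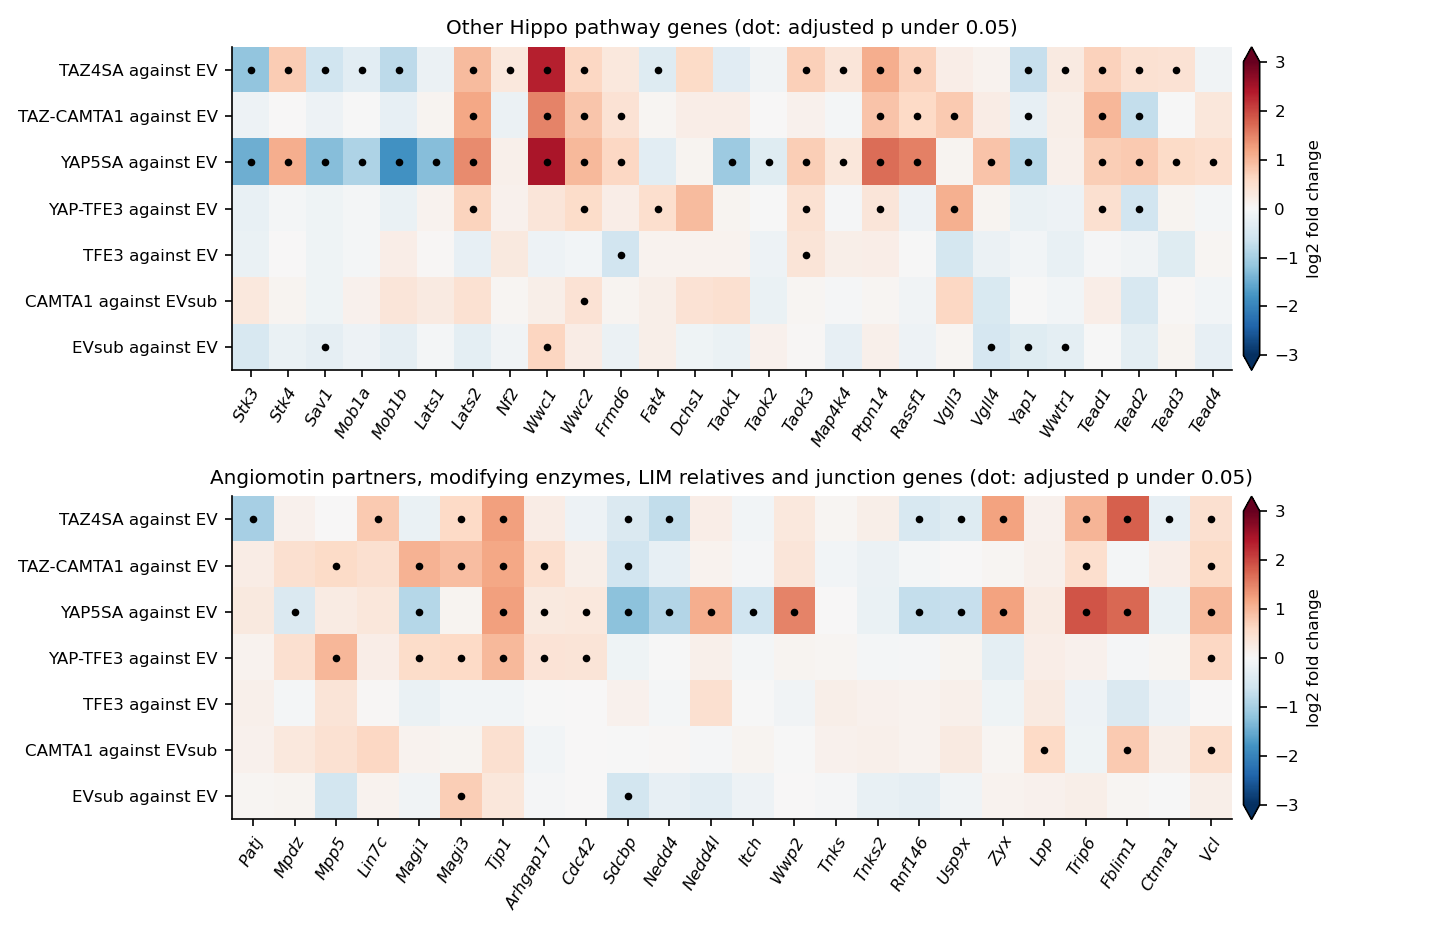
Log2 fold change of the 27 other Hippo genes (top) and 24 of the 25 partners, enzymes and LIM relatives (bottom) in the 7 comparisons with an empty vector, on a colour scale cut at 3; dots mark an adjusted p below 0.05 by edgeR. Lats2, Wwc2 and Tjp1 carry a dot in each of the 4 lines for TEAD-binding proteins, and Zyx and Fblim1 in those for TAZ4SA and YAP5SA.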

How the data were processed

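PolyA RNA of 24 NIH 3T3 libraries, 3 in each of 8 groups, was analysed from the counts per Ensembl gene that the authors deposited, made from stranded polyA libraries aligned to mm10 with Hisat2; the methods name Salmon and tximport for gene-level counts, but not whether the deposited whole numbers came from them, nor a strand setting. Replicate numbers came from the sample titles, and for YAP-TFE3 replicate 3 the description names another replicate. GENCODE M21 named 37693 of 39017 identifiers and gave merged exon lengths. The 14361 genes averaging 5 counts or more were tested with edgeR 4.0.16 in R 4.3.3 (TMM scaling, 1 quasi-likelihood fit over all 24 libraries, a coefficient per group, Benjamini-Hochberg over all tested genes, called below 0.05). The SE is the log2 fold change divided by the square root of F. The alternatives were DESeq2 1.42.0, its size factors in edgeR, total counts only, no filter (24737 genes), a replicate term, a fit of only the 2 groups compared, and leaving out each library. With 3 libraries a group, the precision is that of the spread between lines. Log2 CPM for correlations used a prior count of 2. The named genes are the 6 members, 27 Hippo genes, 25 partners and relatives, and for each member the 3 most correlated genes. Marker lists for fibroblasts, epithelium, endothelium, macrophages and skeletal muscle held 9, 5, 5, 5 and 3 genes. Members and lists were chosen with earlier results of these data known. Start windows came from RefSeq (GRCm38.p6), and tables and plots were made in Python 3.11.15 (matplotlib 3.10.9 for plots, pandas 2.3.3 and numpy 2.4.6 for tables). Of the genes on the second list and of those listed as most like a member, 1 each is not reported here.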

Additional observations from a re-analysis of the deposited data

How the results depend on the processing

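Of the 66 log2 fold changes of the 6 members in 11 comparisons, 59 kept direction and side of the threshold in DESeq2, 60 with DESeq2 size factors, 60 with no filter on low counts, 58 with only the 2 compared groups fitted, and 51 with total counts only. With a library left out, 1509 kept both, 12 gained a call, 41 lost one and 22 turned direction. The calls of Amot in the 4 groups with TEAD-binding proteins, of Amotl2 and Ajuba in TAZ4SA, TAZ-CAMTA1 and YAP5SA and of Wtip in TAZ-CAMTA1 and YAP5SA held throughout. The cause was not tested for any of the changes below.

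Same-numbered libraries of different groups did not pair regularly: in no comparison were all the same-numbered correlations above 0.1. The highest were in CAMTA1 against EVsub, at 0.25 for replicate 1 and 0.41 for replicate 3, with -0.00246 for replicate 2. With a replicate block in the edgeR fit, 64 of the 66 values kept direction and call and 2 lost their call (Wtip in TAZ4SA, adjusted p = 0.0590 by edgeR, and Limd1 in YAP5SA, adjusted p = 0.0511 by edgeR), and the Hippo count in CAMTA1 against EVsub went from 1 to 0 (Wwc2, adjusted p = 0.0508 by edgeR). In TAZ-CAMTA1 against EV the block also ended the calls of Yap1 and Mpp5 (adjusted p = 0.0501 and 0.0507 by edgeR).

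With total counts only, the members called went from 4 to 2 in YAP-TFE3 against EV and from 3 to 5 in TAZ4SA against YAP5SA, and the Hippo count in CAMTA1 against EVsub from 1 to 0. Amotl1 turned from 0.10 to -0.0937 in TAZ4SA, from 0.00 to -0.37 in YAP5SA, from -0.00 to 0.0074 in TFE3 and from -0.06 to 0.13 in TAZ-CAMTA1 against TAZ4SA, and Amot from -0.01 to 0.0227 in CAMTA1 against EVsub. With DESeq2 size factors, Amotl1 turned to -0.0179 in YAP5SA and 0.00959 in TFE3, and Amot to 0.00425 in CAMTA1. In DESeq2, the same values were -0.0179, 0.00953 and 0.00429, and the counts went from 1 to 3 for Hippo genes and from 313 to 636 for all genes in CAMTA1 against EVsub, and from 3 to 5 for partners and LIM relatives in EVsub against EV.

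With no filter, Amotl1 turned to -0.0124 in YAP5SA and 0.00443 in TFE3. The Hippo count went from 2 to 1 in TFE3 and from 1 to 4 in CAMTA1, the partner count in CAMTA1 from 3 to 5 and that of all genes there from 313 to 674. With only the 2 compared groups fitted, Amotl1 turned to -0.0389 in YAP5SA and 0.0144 in TFE3, and Amot to 0.00759 in CAMTA1. The Hippo count went from 19 to 12 in TAZ4SA, from 2 to 4 in TFE3, from 1 to 0 in CAMTA1 and from 5 to 1 in EVsub. In TFE3 the members went from 0 to 1, the partners from 0 to 4 and all genes from 485 to 1512. In CAMTA1 the partners went from 3 to 0 and all genes from 313 to 22. All genes called went from 3173 to 1683 in EVsub against EV, from 1671 to 2572 in TAZ-CAMTA1 against YAP-TFE3 and from 6087 to 2910 in TAZ4SA against YAP5SA.

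Leaving out each library in turn gave these lowest and highest values. For Amotl1 they were -0.000266 and 0.193 in TAZ4SA, -0.0431 and 0.115 in TAZ-CAMTA1, -0.0876 and 0.0707 in YAP5SA, -0.0916 and 0.0667 in TFE3, -0.146 and 0.0464 in TAZ-CAMTA1 against TAZ4SA, and -0.00196 and 0.191 in TAZ4SA against YAP5SA. For Limd1 they were -0.0131 and 0.0726 in YAP-TFE3, -0.0157 and 0.0786 in TAZ-CAMTA1 against TAZ4SA, and -0.0361 and 0.0566 in TAZ4SA against YAP5SA. In CAMTA1 against EVsub they were -0.0848 and 0.0799 for Amot and -0.00180 and 0.121 for Ajuba. Members called ranged from 1 to 4 in YAP-TFE3, from 0 to 1 in TFE3 and from 2 to 5 in TAZ-CAMTA1 against YAP-TFE3. Hippo genes called ranged from 3 to 8 in YAP-TFE3, 0 to 3 in TFE3, 0 to 3 in CAMTA1 and 1 to 8 in EVsub. Partners and LIM relatives called ranged from 0 to 1 in TFE3, 0 to 5 in CAMTA1 and 3 to 5 in EVsub. All genes called ranged from 2010 to 3760 in TAZ-CAMTA1, 1133 to 2757 in YAP-TFE3, 192 to 706 in TFE3, 72 to 710 in CAMTA1, 1971 to 3846 in EVsub and 835 to 2229 in TAZ-CAMTA1 against YAP-TFE3.

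Depth limits the members little, as the lowest count of any member in a library was 555, and 3 libraries a group leave differences near the spread between lines unresolved. RNA levels say nothing on the amount or place of the proteins.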
